A study of Gossypium hirsutum with 2 samples.

Results

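The far-upstream promoter peaks of GhD53 are the enriched regions whose centres lay 1500 to 2000 bp upstream of the start site of the gene the authors assigned to them. They were taken from the longer of 2 deposited promoter peak lists, and peaks at genes whose best protein hit is encoded in a chloroplast or mitochondrial genome were dropped, which removed 8 peaks. This left 653 peaks at 647 genes, of 2183 peaks at 2111 genes in the whole list and of 2134 peaks at 2080 genes after the same drop. The 3 nearer classes, each 500 bp wide, held 607 peaks (1000 up to 1500 bp), 523 peaks (500 up to 1000 bp) and 276 peaks (within 500 bp), together 1406.

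The purified fraction was 1 library of DNA recovered with affinity-tagged GhD53 made in vitro, and the input fraction was 1 library of the same kind of genomic DNA before recovery. Both came from fiber of upland cotton (Gossypium hirsutum), and the labels give no cultivar and no stage of the fiber. A recovery with the tag alone, or with no protein, was not among the libraries, so what the tag or the beads retained cannot be told apart from what GhD53 retained. With 1 library per fraction there was no replicate spread and no test between samples, and intervals on shares cover counting error only. Peaks are not replicates.

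GhD53 belongs to the D53 family, whose members repress strigolactone responses. When strigolactone binds its receptor D14, an F-box protein marks the D53 repressor for destruction by the proteasome. Without the hormone, D53 proteins persist and recruit TOPLESS co-repressors, which work with histone deacetylases. DNA affinity purification sequencing offers naked DNA to the protein, so chromatin, partner proteins and DNA made inaccessible in the cell play no part. The region far upstream of a gene belongs to what annotation calls the promoter, but in plants it lies outside the core promoter, where the transcription machinery assembles.

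Most far-upstream peaks were low and much alike. The median pileup, the authors' fragment signal at the peak summit, was 5 (quartiles 5 and 7, lowest 4, highest 361). The median fold enrichment over the local background was 3.73 (quartiles 3.67 and 4.35, lowest 2.28, highest 15.2), equal to the median of 3.73 in the nearer peaks. Of the 653 peaks, 588 (90.0%) had a pileup of 4 to 8. Under 558 peaks (85.5%) the background stood within 0.01 of its lowest value, 0.608 fragments, so that fold took fixed steps with pileup. On that background a pileup of 4 was worth 3.11-fold (117 peaks), 5 was worth 3.73-fold (189 peaks), 6 was worth 4.35-fold (120 peaks) and 7 was worth 4.98-fold (56 peaks). Genes with the same fold therefore had the same small number of fragments, and a step between neighbours is 1 fragment.

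**Figure D1:**
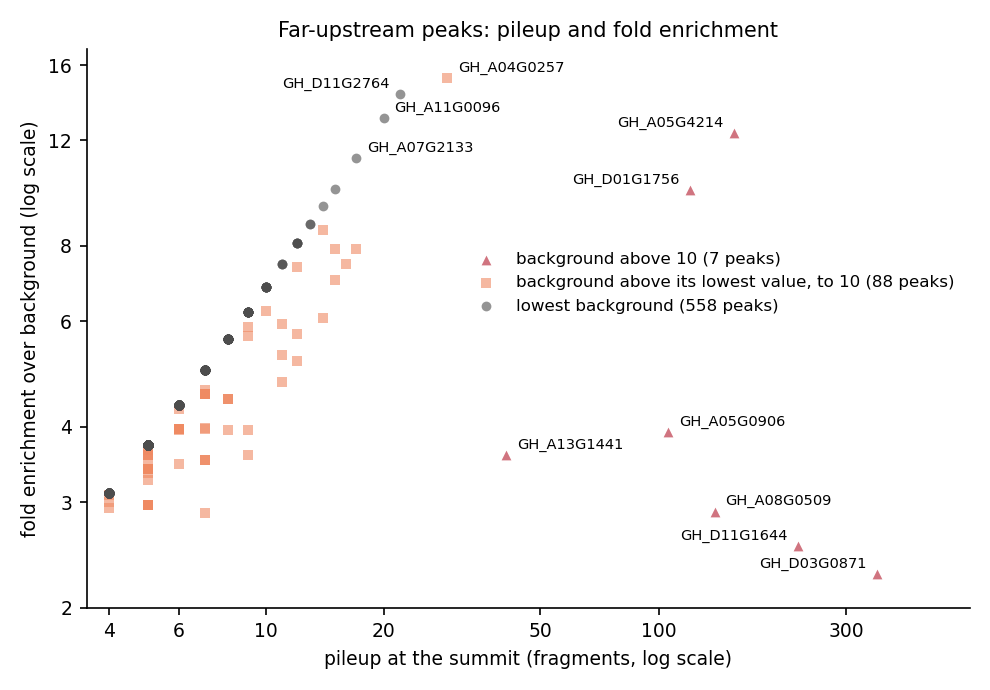
Pileup at the summit (x axis, fragments, log scale) and fold enrichment over background (y axis, log scale) of the 653 far-upstream peaks, 1 point per peak, with marker and colour by recovered background. The 558 peaks on the lowest background form 1 line of steps, and the 7 peaks with a background above 10 lie to the right of it at pileups of 41 to 361.

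Of the far-upstream peaks 521 passed a q-value of 0.05 (79.8%, Wilson 95% interval 76.5 to 82.7), against 78.5% of all peaks under the same drop. The stricter q-value of 1e-05 was passed by 58 (8.88%, 6.93 to 11.3), against 8.72% of all. Both shares were close to the background of the list, which includes the far-upstream peaks. At a q-value of 0.05 the difference from all nearer peaks was 1.83 percentage points (95% interval -2.03 to 5.50). Within 500 bp the share was 71.0%, and the far-upstream share was 8.77 points above it (2.78 to 15.1). The shorter list also held 260 of the far-upstream peaks (39.8%, 36.1 to 43.6), with 1 bp of overlap counted as shared, against 33.6% of all peaks. Among nearer peaks the shorter list held 32.0% from 1000 up to 1500 bp, 30.0% from 500 up to 1000 bp and 25.7% within 500 bp. The far-upstream share was 9.80 percentage points above that of all nearer peaks (95% interval 5.38 to 14.3) and 7.86 points above the next class (2.55 to 13.1). Both lists come from the same libraries, so this share describes how the lists were made as well as the peaks.

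At equal pileup the far-upstream share was the higher at pileups of 5 and 6 and the lower at 7 and 8. On the lowest background the shorter list held 0 of 117 far-upstream peaks of pileup 4 and 0 of 291 nearer ones. It held 34 of 189 far-upstream peaks of pileup 5 (18.0%), against 55 of 484 nearer ones (11.4%). At pileup 6 it held 55 of 120 far-upstream peaks (45.8%) and 97 of 265 nearer ones (36.6%). At pileup 7 it held 43 of 56 far-upstream peaks (76.8%) and 79 of 99 nearer ones (79.8%), and at pileup 8 32 of 36 (88.9%) and 36 of 39 (92.3%). The intervals of the far-upstream and nearer shares overlapped at each of these pileups. Such overlap does not show that the shares are equal, and the differences at equal pileup were given no interval of their own.

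**Figure D2:**
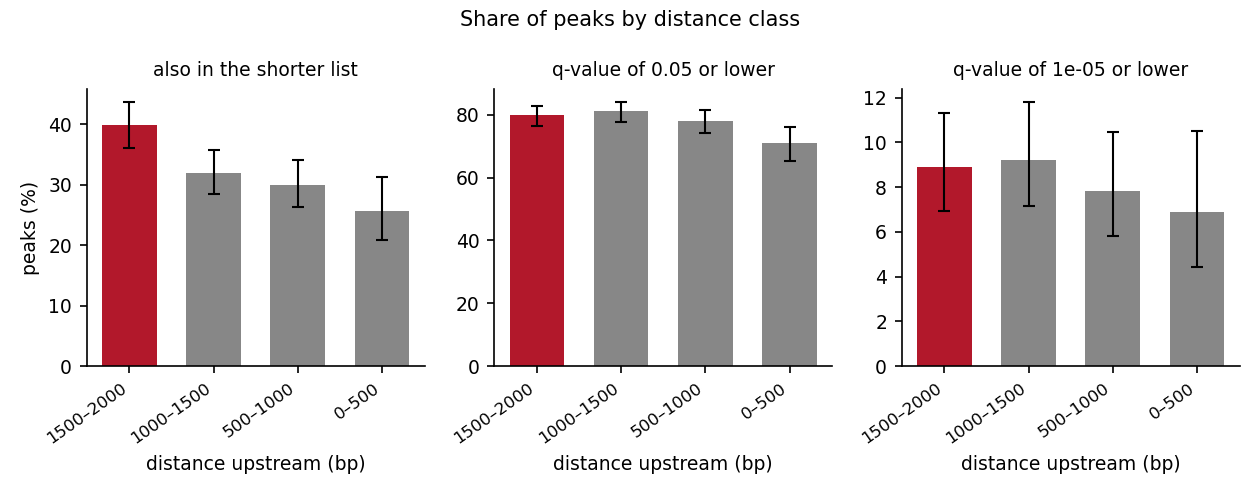
Share of peaks (y axes, %) by distance upstream (x axes, bp), far-upstream peaks in red at the left and nearer classes in grey, with Wilson 95% intervals as bars of counting error. The share also in the shorter list stands at 39.8% in the far-upstream class and 25.7% within 500 bp of the start site. The share with a q-value of 0.05 or lower stands at 79.8% and 71.0% in the same classes. The share with a q-value of 1e-05 or lower has overlapping intervals in the 4 classes.

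Within the range the peaks were spread evenly. From 2000 toward 1500 bp the successive 100 bp intervals held 132, 131, 130, 116 and 144 peaks. The nearest 100 bp to the start site held 18. Distance refers to the peak centre, and peaks had a median length of 177 bp (quartiles 150 and 227). Thus 381 far-upstream peaks (58.3%) lay wholly between the limits, 130 reached beyond 2000 bp and 143 reached nearer than 1500 bp.

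**Figure D3:**
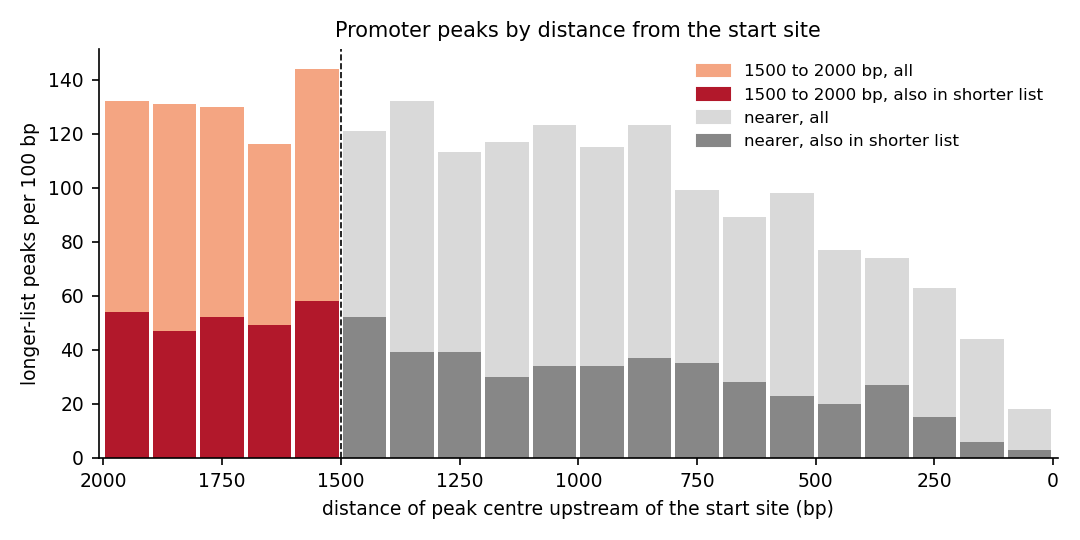
Number of longer-list peaks per 100 bp (y axis) by distance of the peak centre upstream of the start site (x axis, bp, start site at the right), with the far-upstream range in red and nearer peaks in grey, the darker part of each bar being peaks also in the shorter list. The 5 far-upstream bars hold 116 to 144 peaks each, and the bar at the start site holds 18.

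The 3 peaks on each side of each limit had low folds for the most part, and some of these folds fell between the steps of the lowest background. Just inside 2000 bp, at 1998 bp, were those of GH_A12G0990 (a probable mannitol dehydrogenase, 4.35-fold), the pentatricopeptide repeat gene GH_D05G2822 (3.40-fold) and GH_D09G0716 (4.35-fold). The last encodes a RIC5-like protein of a family that binds ROP GTPases, the switches of polar growth. Just outside were GH_A11G3486 and GH_D05G3134 at 2007 bp, both 3.73-fold, and GH_A05G3783 at 2005 bp, 5.10-fold. At the near limit GH_A12G0508 (1501 bp, 3.11-fold), GH_A05G3580 (1500 bp, 6.22-fold) and GH_D10G2790 (1500 bp, 3.67-fold) were just inside. GH_A01G0581, GH_A05G4041 and GH_A12G2073, all at 1499 bp, were just outside with 4.35-, 9.07- and 4.98-fold.

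All 653 peaks were annotated to the promoter of their own gene, and 5 of them (0.766%) also lay in the promoter of a second gene. Among nearer peaks 58 of 1406 (4.13%) had a second feature, a difference of -3.36 percentage points (95% interval -4.61 to -1.99). Each peak is listed with 1 gene and 1 distance, and how the authors chose between 2 promoters is not known here. Whether that choice shapes the difference was not tested. No far-upstream peak was annotated to the coding sequence or intron of a neighbour (0 of 653), against 4 of 1406 nearer ones (0.284%), a share within the bound of 0.585% that the 0 allows (upper Wilson bound). At each of the 5 the second gene carried an adjacent number along the chromosome, either the one before or the one after. It had 0 listed peaks of its own, the shared peak being listed under the first gene alone. GH_A05G3580, a probable carboxylesterase, shared its peak with GH_A05G3579 (chromosome A05, 85383196 to 85383551, 6.22-fold), and GH_A07G1596 shared its peak with GH_A07G1595 (5.60-fold). The other 3 were GH_D12G2947 with GH_D12G2948 (4.35-fold), GH_D07G2175, a cysteine-rich repeat secretory protein, with GH_D07G2176 (3.73-fold), and GH_D12G2334 with GH_D12G2335 (3.11-fold). GH_D12G2334 encodes a dynamin-related protein of type 1E, a family that pinches membranes at the plasma membrane and the cell plate. Which gene of such a pair the site serves was not tested.

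Both subgenomes of this tetraploid carried far-upstream peaks in near equal number, 316 on A and 337 on D (A share 48.4%, 44.6 to 52.2). Each chromosome had between 15 and 40 of them. The share of a chromosome's upstream peaks that were far-upstream was highest on D04 (28 of 61, 45.9%, interval 34.0 to 58.3) and lowest on A09 (15 of 70, 21.4%, 13.4 to 32.4). These are the extremes of 26 chromosomes and were picked as such.

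The highest folds were led by genes with no informative name. GH_A04G0257 had a pileup of 29 and 15.2-fold, with its peak 1864 bp upstream on chromosome A04 (4745390 to 4745722, coordinates as deposited). GH_D11G2764 had a pileup of 22 and 14.3-fold, 1759 bp upstream, and GH_A11G0096 a pileup of 20 and 13.1-fold, 1972 bp upstream. All 3 genes are short, spanning 313, 658 and 592 bp, and their best hits are hypothetical proteins. A fold of 8 or more was found at 16 of the 653 peaks, against 28 of 1406 nearer peaks. All of the 15 ranked highest were also in the shorter list, but the cut falls inside a tie, since GH_D08G1001 had the same 8.09-fold and pileup of 12 as the last of them and was in both lists as well.

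Named genes in this group covered several functions. GH_A05G4214 encodes a probable subunit 26c of Mediator, the complex that links DNA-bound regulators to RNA polymerase II. Its peak, 1594 bp upstream on chromosome A05 (108873241 to 108873851), had a pileup of 156 over a background of 11.7 and 12.3-fold. GH_A07G2133, a triacylglycerol lipase, had 11.2-fold (pileup 17), and GH_A01G2452, related to the ERBB-3 binding protein EBP1 that promotes plant organ growth, had 9.95-fold (pileup 15). GH_A09G2416, a plastid pyruvate kinase, which makes pyruvate for fatty acid synthesis, had 9.33-fold (pileup 14). Pileups of 12 and 8.09-fold were found at GH_D05G2219, a NADPH-cytochrome P450 reductase, the electron donor of the cytochrome P450 enzymes, at GH_A09G2450, related to the stomatal blue-light kinase BLUS1, and at GH_D03G0450, a heavy metal-associated isoprenylated protein. Also among the 15 were GH_D01G1756 (9.91-fold), GH_A11G2060 (8.71-fold), GH_A03G0073, placed by the authors in the GARP-ARR-B regulator family (8.50-fold), and GH_D03G0498 (8.09-fold).

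Very tall peaks made up a smaller share than among all nearer peaks. A pileup above 20 was found at 9 far-upstream peaks (1.38%), against 51 of the nearer ones (3.63%), a difference of -2.25 percentage points (95% interval -3.54 to -0.758). Against the class from 1000 up to 1500 bp alone the difference was -1.42 points, with an interval of -3.19 to 0.184 that includes 0. These 9 held 1200 of the 5041 fragments summed over far-upstream summits (23.8%). The tallest, GH_D03G0871 (1562 bp), had a pileup of 361 over a background of 158.0, and so 2.28-fold, the lowest fold of all 653. GH_D11G1644, a ribonuclease 3-like protein, followed with a pileup of 226 over 88.7 (2.53-fold), and GH_A08G0509, the nuclear gene of a mitochondrial NADH dehydrogenase subunit, with 139 over 47.4 (2.89-fold). GH_A05G0906, a chloroplast FTSH protease, had 106 over 26.2 (3.93-fold), and GH_A13G1441, a sucrose transporter of type SUC8, had 41 over 10.7 (3.59-fold). The background was raised at GH_A05G4214 and GH_D01G1756 (pileup 120 over 11.2) too, and their folds were 12.3 and 9.91. All 9 tall peaks were in both lists.

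Some far-upstream peaks belonged to groups of genes that share a best protein hit. Reads from near-identical copies can be split or misplaced, so values at single copies are uncertain, and the sequences were not compared here. Among 10 uninformative hits shared by 3 or more genes of the longer list, 4 had 2 or more far-upstream genes, a choice made after the values were seen. Genes were grouped by the description of the hit, with isoforms of a protein joined. The hit LOC107961353, an uncharacterized protein, was shared by 11 genes with 13 peaks, and 9 of these genes had 10 far-upstream peaks on 8 chromosomes. Their folds ran from 3.73 to 8.71, and their distances from 1515 to 1927 bp with a median of 1568.5 bp. Single values were 8.71-fold at GH_A11G2060 (1575 bp), 6.84-fold at GH_D13G0910 (1673 bp), and 5.60-fold at GH_A07G1596 (1515 bp), GH_A08G2732 (1525 bp) and GH_D08G0827 (1562 bp). The remaining 2 genes, GH_D12G1753 and GH_D12G0028, had their peaks at 618 bp (11.2-fold) and 936 bp (5.60-fold).

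The spacing was closest for the hit GOBAR_DD28234, a hypothetical protein. Of its 5 genes, all spanning 1044 bp, 4 had a peak between 1797 and 1804 bp upstream, on 4 chromosomes. The peaks lay at 1802 bp at GH_A07G1726 (pileup 4, 3.11-fold), 1804 bp at GH_D04G0606 (pileup 8, 4.46-fold), 1797 bp at GH_D06G0556 (pileup 7, 2.87-fold) and 1801 bp at GH_D09G1426 (pileup 5, 3.73-fold). The fifth gene, GH_A06G1831, had its peak 602 bp downstream of the start site (pileup 5, 3.52-fold). The hit LOC105772114 had 3 genes, each with a far-upstream peak, at 1669 bp (GH_A03G0981), 1691 bp (GH_A12G0722) and 1633 bp (GH_D08G0382), and GOBAR_AA38711 had 3 genes with 4 far-upstream peaks at 1540 to 1911 bp. Over all 10 such hits, 24 far-upstream peaks (3.68%) and 31 nearer ones (2.20%) were at these genes, a difference of 1.47 percentage points with an interval of -0.0288 to 3.32, which includes 0.

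**Figure D4:**
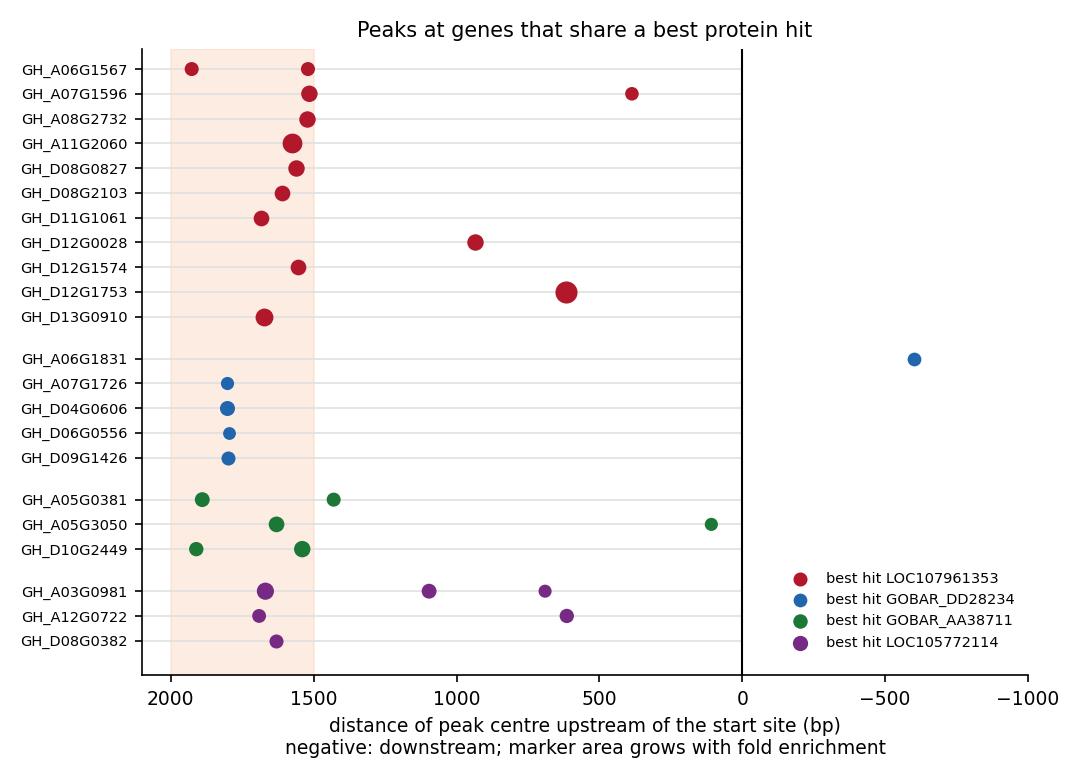
Positions of all longer-list peaks (x axis, distance of the peak centre upstream of the start site in bp, negative values downstream) at genes that share 1 of 4 best protein hits, 1 row per gene, marker area growing with fold enrichment and the far-upstream range shaded. The 4 upstream peaks of the GOBAR_DD28234 genes line up between 1797 and 1804 bp, and 10 of the 13 peaks of the LOC107961353 genes fall in the shaded range.

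More than 1 listed peak was found at 32 of the 647 genes (4.95%, 3.52 to 6.90), against 17 of 1362 with nearer peaks alone (1.25%, 0.781 to 1.99) and 49 of all 2009 upstream genes (2.44%). A gene with several peaks has more chances to have one in the range, so these shares are not like for like. Of the 32, 26 had their further peak outside the range. In those 26 genes the far-upstream fold was the higher at 9, equal at 4 and the lower at 13. GH_A11G2767, encoding the receptor kinase FERONIA, which senses the state of the cell wall during growth, had 3.73-fold at 1988 bp and 8.09-fold at 1325 bp. GH_A09G2450 (BLUS1-like) showed the opposite order, with 8.09-fold at 1653 bp and 3.73-fold at 1215 bp. The heat stress factor gene GH_D08G0699 (HSFA7a-like) had 4.98-fold at 1849 bp and 4.35-fold at 1140 bp. GH_A03G0981 was the only gene with 3 peaks, 6.22-fold at 1669 bp, 4.35-fold at 1096 bp and 3.07-fold at 690 bp. In 6 genes both peaks were far-upstream, among them GH_D11G1500, a choline/ethanolamine phosphotransferase that completes phospholipid synthesis (7.46-fold at 1950 bp and 3.11-fold at 1606 bp), and GH_D02G1069 (7.92-fold at 1925 bp and 4.35-fold at 1522 bp). GH_A07G1596 and GH_D10G2449, also among the 6 several-peak genes with the highest fold, belong to the groups with shared hits.

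Same-named genes on matching chromosomes of the A and D subgenomes were looked for among the genes with a peak. Of 385 named genes with a far-upstream peak (187 on A and 198 on D), 10 had one in the other subgenome (2.60%, 1.42 to 4.71), against 26 of 796 named genes with nearer peaks alone (3.27%, 2.24 to 4.74). The shared name does not show that the genes are homoeologous copies. In 3 pairs both peaks were far-upstream. These were a RING1-like ubiquitin ligase (GH_A07G1092 at 1679 bp and GH_D07G1077 at 1738 bp, 3.73-fold each), a ribonuclease 1-like gene (GH_A12G1843 at 1861 bp, 3.40-fold, and GH_D12G1839 at 1593 bp, 3.73-fold), and a galactosyltransferase of raffinose synthesis (GH_A13G1527 at 1576 bp, 3.73-fold, and GH_D13G1472 at 1754 bp, 3.40-fold). Each of these 6 peaks had a pileup of 5, and the distances within pairs differed. At GH_A11G0585 and GH_D11G0608, both diacylglycerol acyltransferases of oil synthesis, the A peak lay at 1875 bp (3.73-fold) and the D peak at 1334 bp (4.35-fold).

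An informative protein name was available for 385 of the 647 genes (59.5%). The authors' annotation put 55 genes (8.50%, 6.59 to 10.9) in 36 families of transcriptional regulators. Among the 1362 genes with nearer peaks alone there were 97 (7.12%, 5.87 to 8.61), and among all 2080 genes 156 (7.50%). Of the 55, 47 had a q-value of 0.05 or lower and 28 were also in the shorter list, and their median fold was 3.73. NAC factors were the largest family as the annotation divides them, with 5 genes (0.773%), against 5 of 1362 (0.367%) and 10 of 2080 (0.481%). The annotation divides AP2/ERF factors into an AP2 type with 2 genes and an ERF type with 3, against 3 and 13 with nearer peaks alone. Of the NAC genes, GH_A06G1138 (ATAF2-like) and GH_A09G2020 (NAC062-like) had 4.35-fold. GH_A04G1615 and GH_D13G0765, a homolog of the root cap factor FEZ, had 3.73-fold, and GH_A06G0113 (NAC082-like) had 3.11-fold. Among MYB factors GH_A12G1832, of the MYB122 type that in Arabidopsis acts in indole glucosinolate synthesis, had 6.22-fold, and GH_D07G0217 and GH_A12G1296, both MYB6-like repressors, had 4.98- and 3.73-fold.

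Some regulator genes that were alone in their family, chosen after their values were seen, stood on higher steps. GH_D13G1541, encoding a MADS-box factor of the AGL80 type, which in Arabidopsis is needed in the central cell of the ovule, had 6.84-fold (pileup 10, 1963 bp upstream). A pileup of 8 and 5.60-fold were found at the homeobox gene GH_A01G2273 (ATHB-22-like), which is not alone in its family, and at GH_A12G2372 (a ZAT9-like zinc finger), GH_D13G2387 (CONSTANS-like 8), GH_D02G2338 (a B3 factor) and GH_A01G0969 (a subunit C of the CCAAT-binding factor NF-Y). WRKY51- and WRKY46-like genes (GH_D03G0476 and GH_D06G2111) had 4.35-fold each. Of the SQUAMOSA promoter-binding factors, GH_A11G0398 (SPL13A) had 4.98-fold at 1709 bp and GH_A12G1118 (SPL7, a regulator of copper supply) 3.11-fold at 1781 bp. The scarecrow-like GRAS gene GH_D10G2550 had 4.53-fold. Among bHLH genes GH_A13G1421 had 4.35-fold and GH_A11G2790 (UNE12-like) and GH_D08G0331 had 3.11-fold, the lowest step.

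Named after their values were seen, and from no list, are 4 genes whose names belong to the circadian clock. Such names were not counted among genes with nearer peaks, so the 4 are single examples and not a trait of this range. GH_A06G1886 and GH_A07G0243 carry the names EARLY FLOWERING 4 and EARLY FLOWERING 3-like, whose Arabidopsis namesakes belong to the evening complex, and both had a pileup of 6 and 4.35-fold, at 1664 and 1817 bp. GH_D04G0848, a PRR37 pseudo-response regulator, had a pileup of 5 and 3.73-fold at 1514 bp. GH_D09G2293, annotated as TIME FOR COFFEE-like, had a pileup of 7 and 4.98-fold at 1777 bp. GH_A07G0243 was in the longer list alone, and the other three were in both lists.

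Genes for chromatin, DNA and the cell cycle made up 15 of the 647 (2.32%, 1.41 to 3.79), against 16 of 1362 (1.17%, 0.724 to 1.90) with nearer peaks and 31 of 2080 (1.49%) in all. All had low folds, with a median of 3.73, and 9 of the 15 were in both lists. Histone deacetylases as a family remove acetyl marks and favour repression. Their name was carried by 3 genes: GH_A05G4038 (HDA14-like, 4.35-fold, 1855 bp), GH_A12G1773 (probable HDA19, 4.35-fold, 1642 bp) and GH_A03G0747 (HDA6-like, 3.11-fold, 1650 bp). Of these GH_A05G4038 was in both lists. The name does not show that each product acts on histones, and deacetylase names were not counted among genes with nearer peaks. Remodelers were GH_D09G1224 (CHR5-like, 4.35-fold) and GH_A08G2269 (MOM1-like, 3.73-fold), and GH_D08G0502 encodes the histone variant H2AX of the DNA damage response (4.98-fold). On the cell cycle side were the inhibitors GH_D05G3300 (pileup 7, 4.98-fold) and GH_D07G1138 (SMR2-like, pileup 6, 4.35-fold). The D-type cyclins GH_D11G2156, GH_A03G1843 and GH_D10G0221 had 3.73-fold each, the step of pileup 5. GH_A05G1910, a T-type cyclin, and GH_D08G1753, a CDKC2-like kinase, represent the kinase and cyclin types that act on RNA polymerase II during elongation, and had 3.11- and 2.94-fold. Outside the list, GH_D09G0249 and GH_A06G1552 carry best hits to SSRP1, a subunit of the histone chaperone FACT, with 4.35-fold each. The authors' annotation puts the first in the HMG family, while its pathway label for the second is NPL4, a protein of endoplasmic reticulum protein degradation, so the identity of the second is uncertain.

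Of the 21 word lists 3 held 0 far-upstream genes, and among the others lipid genes had the highest median, 5.60-fold. They numbered 9 (1.39%) against 15 of 1362 (1.10%) and 24 of 2080 (1.15%) in all, and 6 of the 9 were in both lists. Besides the lipase GH_A07G2133, they included oleosins, the coat proteins of oil bodies, at GH_D05G0460 (6.22-fold, 1619 bp) and GH_A10G1018 (4.53-fold, 1644 bp). The lipid-binding AIR1-like gene GH_D12G2410 had 6.84-fold and the fatty acid amide hydrolase GH_A05G4030 5.87-fold. GH_D11G3608, a FAD2-like desaturase, had 5.60-fold at 1675 bp, while the plastid stearoyl desaturase GH_A05G3296 had 3.11-fold. GH_D13G2508, a phospholipid:diacylglycerol acyltransferase of oil assembly, had 4.35-fold. The list held few genes, and 4 of its 9 peaks rested on a pileup of 7 or fewer. It was picked as the extreme of the lists, and no median was taken for lipid genes with nearer peaks.

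RNA processing was represented by 27 genes (4.17%), against 39 of 1362 (2.86%) and 69 of 2080 (3.32%). Their median fold was 4.35, 26 had a q-value of 0.05 or lower and 14 were in both lists. After the Mediator gene came GH_D09G1885, a chloroplast peptidyl-tRNA hydrolase, which recycles stalled tRNA and is thus a translation enzyme (7.92-fold). Serine/arginine-rich splicing factors had 6.84-fold at GH_D01G2432 (RS2Z33-like), 4.35-fold at GH_A03G1624 (RSZ21-like) and 3.73-fold at GH_D10G1826 (SC35-like). Pentatricopeptide repeat proteins bind organelle transcripts, and the highest of them had 6.84-fold at GH_D03G0777, 5.94-fold at GH_A10G0698 and 5.60-fold at GH_D08G2406. The list counts matched words and leaves out some RNA genes, such as GH_A08G1866 and GH_D09G0547 (6.84-fold each), described below under pathway labels.

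The hormone word lists, which match protein names alone, held few far-upstream genes. Of the strigolactone and karrikin pathway 0 of 647 genes had a far-upstream peak, which allows a share of up to 0.590% (upper Wilson bound), and 2 of 1362 had a nearer one. Cytokinin and jasmonate or salicylate lists also had 0 far-upstream genes, against 2 and 1 with nearer peaks. Auxin had 3 genes (0.464%): GH_A11G1486 (AIR12, 4.46-fold), GH_D12G0308 (SAUR71-like, 4.35-fold) and GH_A11G0655, an AFB2-like auxin receptor (3.73-fold), against 1 with a nearer peak (0.0734%) and 5 in all. Ethylene had 5 (0.773%), all AP2/ERF factors matched by name, at 3.73-fold (GH_A09G0256, GH_D02G2303 and GH_D03G0823) and 3.11-fold (GH_A07G1724 and the ANT-like GH_D11G2194), against 12 with nearer peaks (0.881%). The 3 abscisic acid genes, GH_A03G1369 (ABI5-like, 3.11-fold) and the phosphatases 2C GH_A11G3031 (3.11-fold) and GH_A07G0044 (2.97-fold), did not reach a q-value of 0.05. Neither did GH_D06G0024, a gibberellin-regulated protein, nor GH_D13G0570, a BAK1-like co-receptor of brassinosteroid and immune receptors, both at 3.11-fold. Further genes outside these lists, chosen after their values were seen, have names or labels that touch the same hormones. GH_D12G1428, a GRAS-family gene, had the pathway label of DELLA, the repressor of gibberellin responses (4.35-fold, −log10 q 2.27). The GARP-ARR-B family, to which GH_A03G0073 (8.50-fold) was assigned, is that of cytokinin response regulators, and the CKI1-like histidine kinase gene GH_A12G1421 had 6.06-fold. Enzymes of brassinosteroid synthesis were present at GH_A11G1541 (CYP724B1-like, 3.73-fold) and GH_A07G2001 (CYP85A-like, 3.11-fold).

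The cell wall list had 7 genes (1.08%), against 29 of 1362 (2.13%) and 37 of 2080. These are counts of matched words. They leave out some wall genes, such as GH_D05G2964, a glycine-rich cell wall structural protein (pileup 8, 5.60-fold). A proline-rich protein gene, GH_D08G1001, had 8.09-fold and the arabinogalactan peptide gene GH_D11G2654 6.22-fold, whereas a polygalacturonase (GH_A08G1367) had 4.35-fold and the laccase GH_D05G0903, of the lignin-forming LAC4 type, 3.73-fold. The cytoskeleton and vesicle list had 11 genes (1.70%), against 13 of 1362 (0.954%) and 24 of 2080. GH_D10G2102 and GH_D05G2295 encode annexins, calcium-dependent membrane proteins, and had 6.22- and 4.98-fold, the second being annotated as a fiber annexin. A formin, which nucleates actin filaments (GH_A01G1228), and GH_D01G1047, a Golgi organization protein, had 5.60-fold, the kinesin GH_A11G2226 had 4.98-fold, and beta-tubulins (GH_D03G1710 and GH_D05G1898) had 3.11-fold. Chosen after their values were seen, GH_A01G1239, a rhamnogalacturonate lyase that cuts pectin, had 7.48-fold, GH_D08G1737, a RABA4c-like GTPase of secretion, had 7.04-fold, and GH_A04G1236, a RALF22-like peptide of the FERONIA ligand family, had 4.35-fold.

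**Figure D5:**
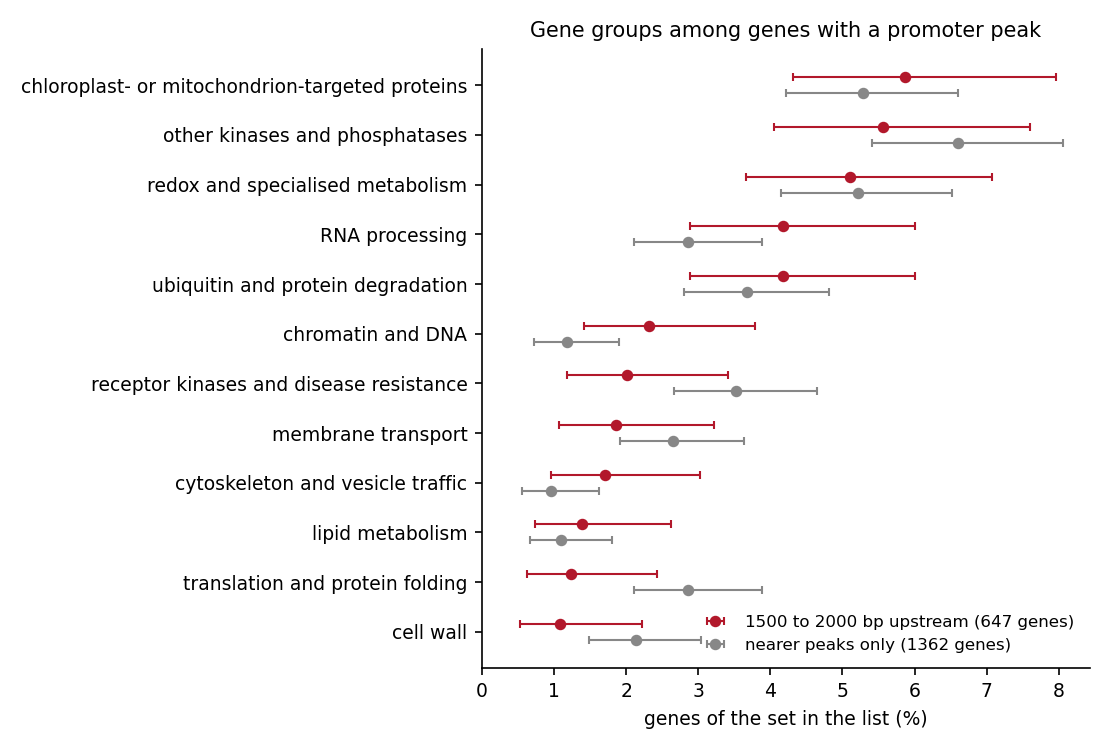
Share of genes in each word list (x axis, %) for genes with a far-upstream peak (red, upper point) and genes with nearer peaks alone (grey, lower point), for lists with 20 or more genes in both sets together, with Wilson 95% intervals as bars of counting error. Chromatin and DNA stands at 2.32% against 1.17%, and translation and protein folding at 1.24% against 2.86%, with no list test behind either.

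The remaining lists were described by counts. Translation and protein folding had 8 genes (1.24%) against 39 of 1362 (2.86%) and 50 of 2080, led at 4.98-fold by GH_A07G0503, GH_D07G1418 (a DnaJ-like chaperone) and GH_D08G1559, with the small heat shock protein gene GH_D07G0762 at 4.35-fold. Receptors and disease resistance had 13 (2.01%) against 48 of 1362 (3.52%), led by the RRS1-like immune receptor GH_A11G3172 (7.37-fold), with GH_A08G1196 at 5.60-fold and the RPP8-like GH_D10G2593 at 4.98-fold. The list of other kinases and phosphatases matched 36 genes (5.56% against 6.61%). Kinase inhibitors, such as GH_D05G3300 and GH_D07G1138, and the pyruvate kinase GH_A09G2416 are counted in it by name. Of the 36, GH_A12G1421, related to the histidine kinase CKI1, had 6.06-fold and GH_D06G1254 5.60-fold. The 27 ubiquitin and protease genes (4.17% against 3.67%) were led by the RING-H2 ligase gene GH_A06G2038 (6.22-fold). It was followed by carboxypeptidase Y (GH_A13G1205), a vacuolar protease in yeast, and the F-box gene GH_D06G1820, both at 4.98-fold. Membrane transport had 12 genes (1.85% against 2.64%), among them the purine permease GH_A05G1510 (4.98-fold) and the inositol transporter GH_A10G0439 (3.73-fold). Redox and specialised metabolism had 33 (5.10% against 5.21%), with a glutathione S-transferase (GH_A12G0092) and a glyoxylate reductase (GH_A10G0599) at 4.98-fold. Nuclear genes for organelle-targeted proteins numbered 38 (5.87% against 5.29%), and retrotransposon-related genes 3 (0.464% against 0.294%), the latter at 2.97- to 4.35-fold. Any list matched 211 genes (32.6%), against 33.4% of genes with nearer peaks.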

How the data were processed

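Both libraries, 1 purified with GhD53 and 1 input, were compared by the authors in peak lists restricted to promoters. Per the submitters' processing notes, BWA, ChIPseeker and deepTools 2.5.4 were used; peak caller, thresholds and genome build were not given in the sources used here. Per the file headers, each peak carries a pileup (fragment signal), a fold enrichment (ratio over background), a −log10 p-value and a −log10 q-value, deposited by the authors with the gene, its signed distance, features, best protein hit and regulator family. The depth of each library is unknown here beyond the pileup at each peak.

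Members were taken by the authors' distance, which matched the recomputed peak centre within 1 bp. The background was recovered as (pileup + 1) / fold − 1. Overlap between lists needed 1 bp. Shares have Wilson 95% intervals and differences of shares Newcombe intervals, from Python 3.11.15 with pandas 2.3.3 and SciPy 1.17.1, and the procedures were tested on simulated data. There were 21 word lists over protein names, with 5 changes to their words made after the matches were seen, and the members and lists were chosen with earlier results of these data known. A gene could match more than 1 list, and a matched word does not ensure the function. The genes named were those of the 15 highest folds, every strigolactone gene, up to 4 per list and per regulator family with several genes, up to 6 with several peaks, and the 3 peaks on each side of each limit; the other genes named, those with a shared best hit included, were chosen after their values were seen. Some genes that the rule names are not reported here. Alternatives were summit distance, a range narrowed by 50 bp, genes in place of peaks, the shorter list, stricter q-values, plastid gene names and 50% reciprocal overlap, and, chosen after seeing the data, the lowest background alone and shared best hits dropped. Peak sequences were not read because no genome of the files' build was used here.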

Additional observations from a re-analysis of the deposited data

How the results depend on the processing

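The number of far-upstream peaks was 653 as reported, 685 by summit distance and 518 in a range narrowed by 50 bp. It was 266 in the shorter list and 58 at a q-value of 1e-05 or lower. The share of upstream peaks that were far-upstream was 31.7%, and 38.8% in the shorter list. At a q-value of 0.05 or lower the median fold was 4.35 and 49.7% of far-upstream peaks were also in the shorter list, since that limit removes the lowest pileups. Of 53 alternatives, 45 stayed within the reported value's interval or within 1.5 times its count, and 8 moved; the abscisic acid, gibberellin and brassinosteroid lists held 0 genes at a q-value of 0.05 or lower. Dropping plastid-type gene names removed 0 peaks. No paired analysis was possible because each fraction had 1 library, and leaving one out would leave no comparison. With 4 to 8 fragments under 90.0% of the peaks, a difference of 1 fragment moves a peak by a whole step of fold, and a gene with no listed peak is not shown to be unbound.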

Other observations

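Pathway labels from the authors' annotation, present for 139 of the 647 genes (21.5%), gave groups that the word lists cut across; the pathways were chosen after their counts were seen, so the counts are descriptions. The mRNA surveillance pathway, which checks and degrades faulty transcripts, had 8 far-upstream genes (1.24%) and 6 of 1362 with nearer peaks alone (0.441%). They included GH_A08G1866, a homolog of the nonsense-mediated decay helicase UPF1, and GH_D09G0547, a subunit of the cleavage and polyadenylation factor, both at 6.84-fold, and GH_D11G0347, a peptide chain release factor that ends translation, at 4.35-fold. Glyoxylate metabolism, which takes in photorespiration, had 5 (0.773%) and 3 (0.220%). Its genes included the glutamine synthetase GH_A02G0277 and the glycolate oxidase-type GH_D01G0345, both at 3.11-fold, and a small subunit gene of Rubisco, GH_D03G1654, at 3.97-fold.

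Secretion and endocytosis genes were spread over several labels. GH_A01G0037, an SH3 domain protein of the endocytic machinery, had 5.60-fold. The COPII coat, which forms vesicles at the endoplasmic reticulum, was represented by GH_D02G1223 (SEC23-like, 4.35-fold) and its GTPase GH_A02G0560 (SAR1A-like, 3.73-fold). The endocytosis label had 6 of 647 far-upstream genes (0.927%) and 12 of 1362 with nearer peaks alone (0.881%). Peroxidases of the phenylpropanoid label, which polymerise lignin precursors and crosslink the wall, had 4.53-fold at GH_A01G0127, 4.35-fold at GH_A12G0856 and GH_A01G1543 and 3.73-fold at GH_A13G1085. That label had 6 far-upstream genes (0.927%) and 9 with nearer peaks alone (0.661%).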
